A study of Mus musculus and Ochotona curzoniae and Rattus norvegicus with 18 samples.

Results

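The genes of mitotic kinases, kinetochores, condensin and the central spindle were followed in cultured fibroblasts of the Tibetan pika and the mouse. The group holds 45 genes chosen by symbol: 8 mitotic kinases, 3 partners of Aurora B, 8 centromere and inner kinetochore proteins, 9 outer kinetochore and checkpoint proteins, 4 genes of the anaphase-promoting complex pathway and separase, 6 spindle and cytokinesis proteins and 7 genes of condensin and chromosome structure. Of these 45, 44 were joined between the species by symbol and tested, among 14418 joined and 10348 tested genes. MKI67, which encodes the Ki-67 protein of the mitotic chromosome surface, was not joined. Its level is not analysed here, and only its mouse promoter was read. Of the 44, 43 reached a mean of 1 FPKM, the filter on low values, in both species, and CENPW reached it in pika alone.

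RNA-seq of the series covers 4 species with 3 libraries each, and only the 3 pika and 3 mouse libraries could be joined gene by gene. The pika group is Ochotona curzoniae with no strain named, and the mouse group is C57BL/6J. Both are labelled as fibroblasts with epidermis as the tissue, grown in 10% FBS and 5% CO2 to 90% confluency, with no drug or genetic change named for these libraries. Age, sex, the number of animals and whether a culture is 1 line or pooled are not given in the sources used here. No label ties the libraries to separate animals or cultures. The p-values therefore set the difference between the species against the variation between libraries of a species, which can be technical variation alone. Each species has its own gene models, so species, gene models and library batch cannot be told apart in any comparison made here.

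In mitosis, the duplicated chromosomes are compacted by condensin and captured by spindle microtubules at the kinetochore, a protein platform built on the centromere. The spindle assembly checkpoint holds the cell until every kinetochore is attached. The anaphase-promoting complex then marks securin and cyclin B for breakdown and separase cuts the cohesin that joins the sister chromatids. Transcripts of many of these proteins accumulate in G2 and mitosis and are low in resting cells.

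The mitotic genes were higher in pika fibroblasts than in mouse fibroblasts, with a median difference well above that of all tested genes. Values are rescaled FPKM, that is, the deposited FPKM of the joined genes brought to the same sum of 1000000 in every library. Summed over the 44 genes, the level was 6915, 6945 and 7026 in the pika libraries, against 972, 995 and 1006 in the mouse libraries. A gene was called when the adjusted p of limma was under 0.05 and the log2 fold change, pika over mouse on log2(value + 1), was at least 1 in size. By this rule 43 of the 44 were called higher, where 28.7% of all tested genes were called higher. None was called lower, where 23.5% of all tested genes were. The remaining gene, CENPT, was higher by less than the fold minimum, and limma gave it an adjusted p of 0.00054. Among the 43, the highest adjusted p from limma with Benjamini-Hochberg adjustment was 5.2e-05. In all 44 genes every pika library lay above every mouse library, which held for 49.6% of all tested genes.

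The median log2 fold change of the 44 genes was 2.89, with quartiles of 2.15 and 3.35, against a median of 0.21 and quartiles of -0.90 and 1.17 over all tested genes. On the plain scale the mean of the pika libraries was between 1.38 and 16.7 times that of the mouse libraries, with a median of 7.73. It was at least 8 times as high for 21 genes, at least 4 times for 35 and under 3 times for 5. The SE of a log2 fold change was 0.093 at the median and ranged from 0.040 for TOP2A to 0.29 for CENPK. The fold changes of the mitotic genes had an SD of 0.85 between genes, against 1.92 over all tested genes. All tested genes ranged from -10.5 to 7.69, and they were not matched to the mitotic genes for level.

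**Figure D1:**
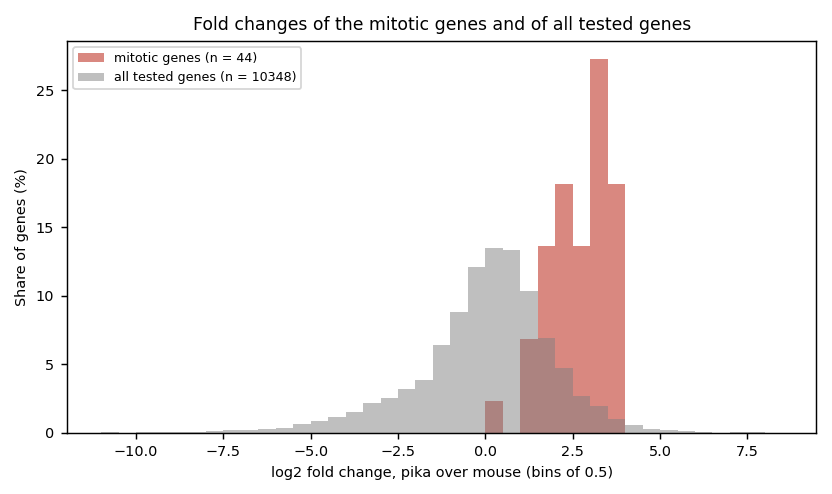
Distribution of the log2 fold change, pika over mouse (x axis), for the 44 tested mitotic genes and for all 10348 tested genes, each drawn as a share of its own group (y axis). The mitotic genes lie between 0.46 and 3.96, around a median of 2.89, while all tested genes centre at 0.21.

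**Figure D2:**
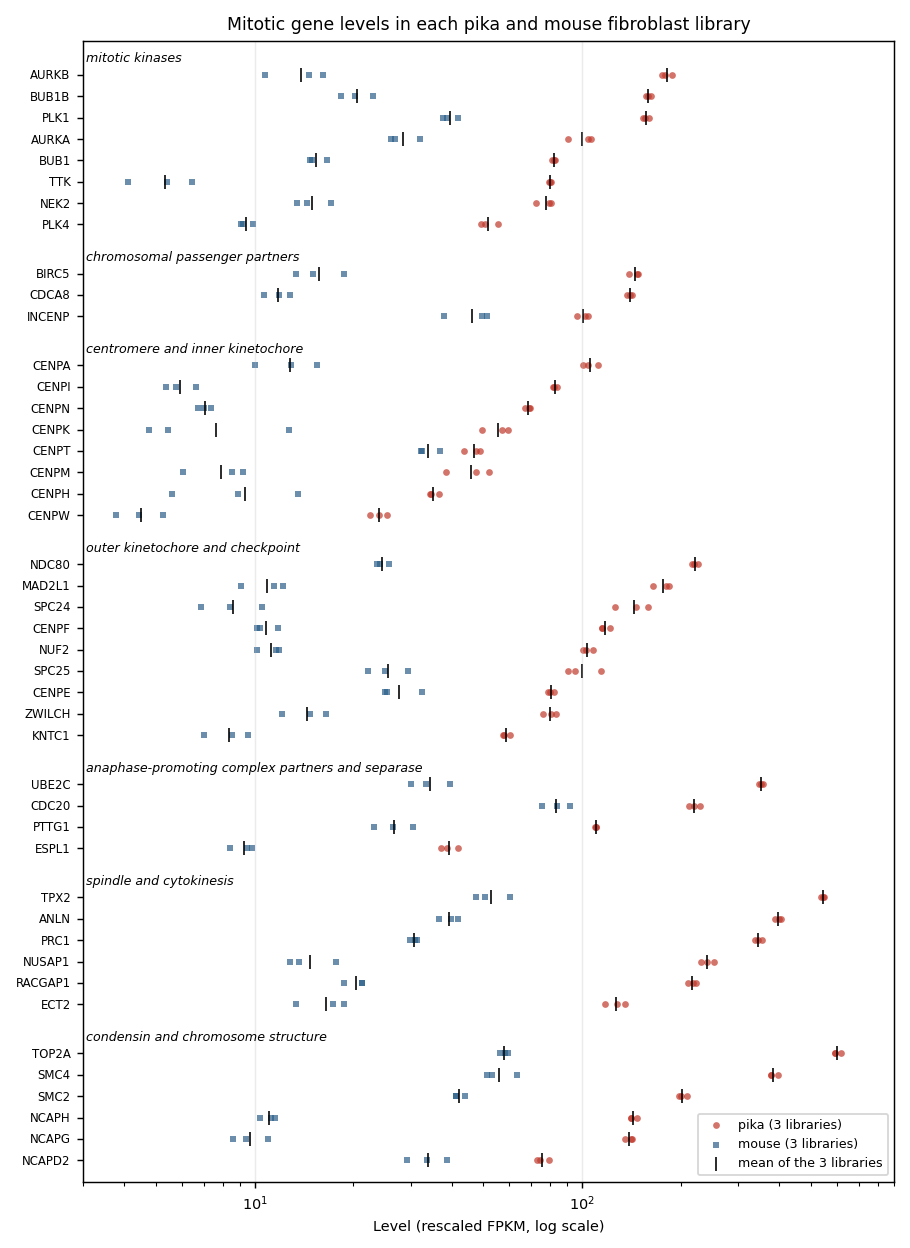
Level of each mitotic gene in each library, in rescaled FPKM on a log axis, with genes grouped by role and the pika libraries drawn beside the mouse libraries. In all 44 genes the 3 pika points lie above the 3 mouse points, and the gap is narrowest for CENPT.

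The levels placed these genes in different parts of each species' range. In pika the gene means lay between 24.0 and 602 rescaled FPKM with a median of 114, and 28 of the 44 reached 100. In mouse they lay between 4.49 and 83.6 with a median of 15.2, and none reached 100. Ranked among the tested genes of the same species, the median mitotic gene stood at percentile 80.8 in pika and 28.3 in mouse. Read depth behind these values differed as well. The 3 pika libraries together held a median of 2726 recovered reads per gene with a range of 295 to 33503. The 3 mouse libraries held a median of 186 with a range of 26 to 1387. The CV between libraries was 3.3% in pika and 12.6% in mouse at the median. The genes kept a similar order in the 2 species, with a Pearson r of 0.65 between log2 means and a Spearman rho of 0.62 across the 44 genes. That is a description across genes that share the same 6 libraries, and genes are not independent replicates.

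The mouse promoters of these genes were read for motifs already known from mitotic genes, so a share above that of all windows was likely in advance. The cell cycle homology element, spelled TTTGAA here, is the site at which the DREAM complex represses many mitotic genes in resting cells, and the CCAAT box binds NF-Y, which activates many of them. RefSeq start regions of build GRCm38.p6 were matched for 39 of the 45 genes, in 43 windows of 250 bases before a start, and both strands were searched. AURKB, INCENP, SMC4, SPC24, TPX2 and ZWILCH were unmatched. TTTGAA stood in 14 of 43 windows, or 32.6%, against 16.0% of all 32851 windows. CCAAT stood in 31 of 43, or 72.1%, against 33.8% of all windows. Every one of the 14 windows with TTTGAA also held CCAAT, and 5.55% of all windows held both. Neither motif stood in the window of CENPT, the gene with the smallest fold change. The same held for ANLN, BIRC5, CENPH, CENPI, MAD2L1, NCAPH, NDC80, NUF2, NUSAP1, PLK4 and PTTG1. Among them, NUSAP1 had the largest fold change of the 44 tested genes.

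Sequences are shown for TOP2A, UBE2C, PRC1 and CENPN, the genes of highest pika level with a TTTGAA match in 4 different role groups. Capitals mark TTTGAA and CCAAT, or TTCAAA and ATTGG where the match is on the other strand, and each run ends at the base before the annotated start. The windows are chr11:99024190-99024439 on the minus strand for TOP2A, chr2:164769679-164769928 on the plus strand for UBE2C, chr7:80294226-80294475 on the plus strand for PRC1 and chr8:116921490-116921739 on the plus strand for CENPN.
TOP2A: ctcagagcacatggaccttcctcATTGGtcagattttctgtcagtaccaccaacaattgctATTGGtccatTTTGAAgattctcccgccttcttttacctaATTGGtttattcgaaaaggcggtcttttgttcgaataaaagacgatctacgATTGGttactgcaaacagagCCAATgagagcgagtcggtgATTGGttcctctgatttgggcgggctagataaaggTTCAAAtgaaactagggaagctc
UBE2C: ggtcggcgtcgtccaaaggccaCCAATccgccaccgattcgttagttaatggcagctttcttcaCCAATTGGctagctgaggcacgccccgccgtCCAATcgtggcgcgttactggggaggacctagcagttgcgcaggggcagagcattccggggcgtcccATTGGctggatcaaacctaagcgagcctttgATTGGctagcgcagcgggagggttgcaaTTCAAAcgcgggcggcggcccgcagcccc
PRC1: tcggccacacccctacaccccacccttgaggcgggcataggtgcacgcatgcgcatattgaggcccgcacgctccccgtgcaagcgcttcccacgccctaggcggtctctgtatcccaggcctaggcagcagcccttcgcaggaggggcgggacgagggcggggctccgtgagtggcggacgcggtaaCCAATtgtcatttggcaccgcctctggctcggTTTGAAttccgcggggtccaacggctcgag
CENPN: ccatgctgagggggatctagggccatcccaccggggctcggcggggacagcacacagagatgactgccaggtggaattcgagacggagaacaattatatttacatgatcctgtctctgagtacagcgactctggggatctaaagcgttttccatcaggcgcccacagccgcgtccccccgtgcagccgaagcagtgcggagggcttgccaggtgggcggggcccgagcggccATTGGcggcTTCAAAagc
TOP2A held 2 TTTGAA and 6 CCAAT matches, and UBE2C held 1 and 6, of which a CCAAT match on each strand overlap. PRC1 and CENPN held 1 of each in the windows shown. The window of PRC1 at another annotated start held 1 CCAAT match and no TTTGAA. The TTTGAA match nearest the start began 23 bases before it in TOP2A, 29 in UBE2C, 30 in PRC1 and 9 in CENPN. A match is a description of the mouse sequence and no pika promoter was read.

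All 8 mitotic kinases were called higher in pika, with a median log2 fold change of 2.34. AURKB, the kinase that corrects faulty kinetochore attachments, lies on chromosome 11 from 69045624 to 69051664 in GRCm38.p6. It had 176, 179 and 189 rescaled FPKM in pika libraries, against 10.8, 16.2 and 14.7 in mouse libraries. The groups were far apart, and the log2 fold change was 3.63 ± 0.13 (SE, n = 3 each), with an adjusted p of 4.5e-09 from limma. AURKA, the related kinase of centrosomes and spindle poles, averaged 100.4 ± 8.42 in pika and 28.3 ± 3.15 in mouse (SD, n = 3 each). At 1.79 ± 0.09, its log2 fold change was the smallest among the kinases. PLK1, which drives entry into mitosis and centrosome maturation, had 153, 160.0 and 156 in pika, against 37.7, 38.8 and 41.8 in mouse. This came to 1.96 ± 0.06 on the log2 scale. TTK, also called MPS1 and the kinase that starts checkpoint signalling, had 79.4, 80.5 and 79.7 in pika, against 6.44, 4.12 and 5.40 in mouse. TTK had the largest fold change of the kinases, 3.69 ± 0.13 on the log2 scale.

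The checkpoint kinases BUB1 and BUB1B differed in the size of their increase. BUB1, which marks the inner centromere for the passenger complex, averaged 82.0 ± 0.77 in pika and 15.5 ± 1.02 in mouse (SD, n = 3 each). BUB1B, which encodes BubR1 of the mitotic checkpoint complex, averaged 159.5 ± 2.98 in pika and 20.6 ± 2.37 in mouse. Their log2 fold changes were 2.34 ± 0.07 and 2.90 ± 0.08. PLK4, the master kinase of centriole duplication, and NEK2, which helps separate centrosomes, rose by 2.34 and 2.30 on the log2 scale. Neither reached 100 rescaled FPKM in pika.

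The 3 partners of Aurora B in the chromosomal passenger complex were all called higher, but not to the same extent. BIRC5, or survivin, had 148, 139.6 and 147 in pika, against 15.1, 18.7 and 13.3 in mouse. CDCA8, or borealin, which with survivin brings the complex to centromeres, averaged 139.9 ± 2.57 in pika and 11.8 ± 1.09 in mouse. Their log2 fold changes were 3.14 and 3.46. INCENP, the scaffold that binds and activates Aurora B, had 104, 102 and 96.6 in pika, against 38.0, 51.3 and 49.5 in mouse. Its log2 fold change of 1.12 ± 0.11 was close to the minimum of 1 and was below it under other scalings, at 0.95 with median-of-ratios scaling and at 0.91 with quantile normalization. Without mouse library 1 it was 0.99. The means of the 4 subunits, Aurora B included, spanned 1.80-fold in pika and 3.92-fold in mouse.

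Of the 8 centromere and inner kinetochore genes, 7 were called higher. CENPA, the histone H3 variant that marks the centromere, had 112, 104 and 101 in pika, against 12.9, 15.6 and 10.0 in mouse. The difference was 2.97 ± 0.14 on the log2 scale. This gene also had the largest ratio of gene model lengths, 5860 bases in mouse and 417 in pika. Without division by gene length its log2 fold change was 0.28, with an adjusted p of 0.072 from limma, and the call was lost. CENPI and CENPN, both of the constitutive network that binds CENPA chromatin, had log2 fold changes of 3.60 and 3.11. CENPN had 69.1, 67.1 and 69.3 in pika, against 7.36, 7.03 and 6.72 in mouse, a clear gap at a low mouse level.

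CENPT, which carries the NDC80 complex on the inner kinetochore, was the exception. It had 43.6, 47.5 and 48.9 in pika, against 32.5, 32.2 and 36.7 in mouse. The libraries did not overlap, but the log2 fold change of 0.46 ± 0.08 was the smallest of the 44 and under the minimum for a call. Its partner CENPW, a histone-fold protein, had 25.4, 22.6 and 24.0 in pika, against 4.43, 3.78 and 5.26 in mouse. CENPT exceeded CENPW 1.94-fold in pika and 7.53-fold in mouse, on a scale already divided by gene length. CENPH, CENPK and CENPM, other members of the same network, were called higher with log2 fold changes of 1.88, 2.82 and 2.40. The mouse libraries spread most here. CENPK had 59.5, 49.5 and 57.2 in pika, against 12.7, 4.75 and 5.44 in mouse, and its SE of 0.29 was the largest of the 44.

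**Figure D3:**
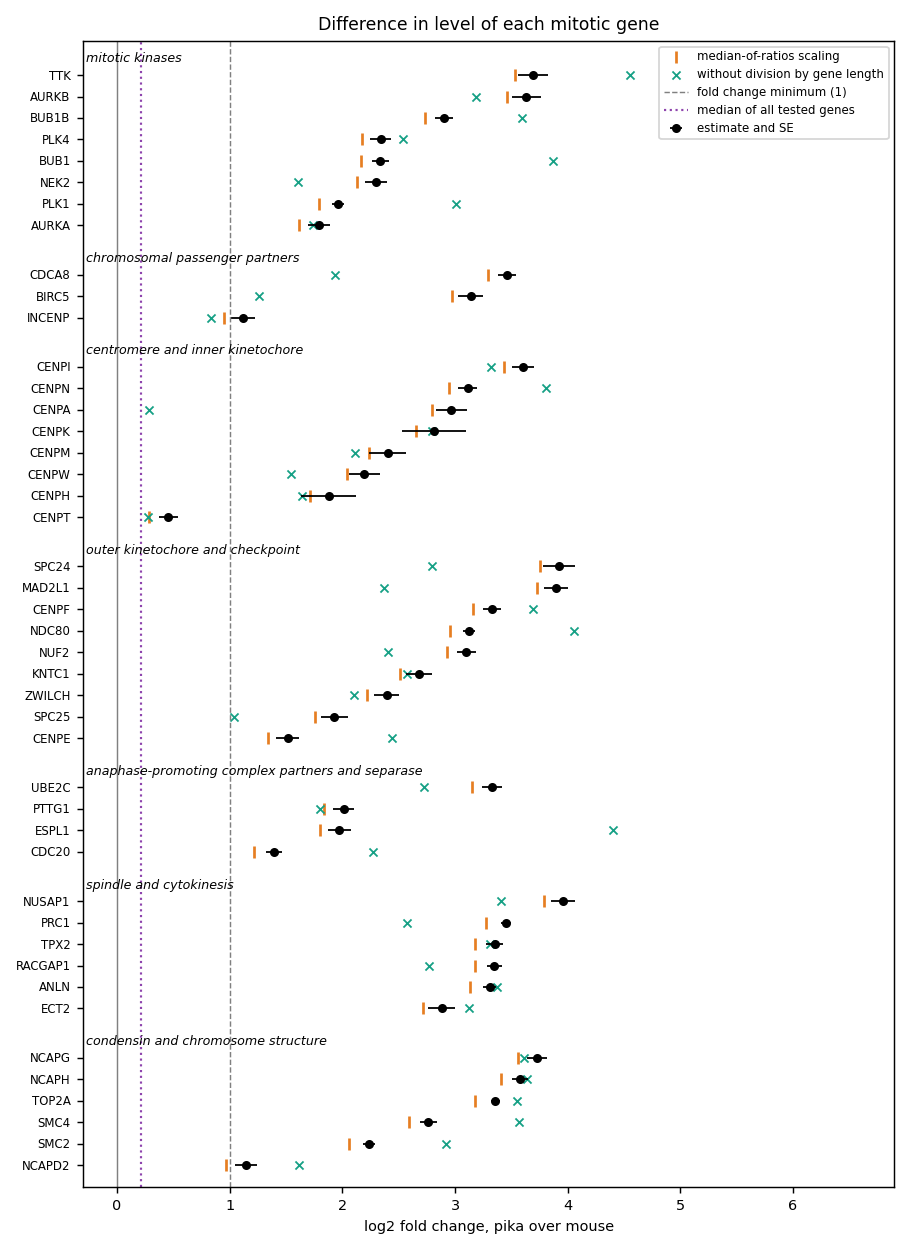
Log2 fold change of each tested mitotic gene, pika over mouse (x axis), by role, with points for the estimate and bars for its SE, and marks for the value under median-of-ratios scaling and without division by gene length. CENPT at 0.46 is the gene below the fold change minimum, and CENPA is at 2.97, and at 0.28 without division by gene length.

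All 9 outer kinetochore and checkpoint genes were called higher, with a median log2 fold change of 3.10. The NDC80 complex, which holds the microtubule, has 4 subunits and all were raised. NDC80 itself had 220.1, 217 and 226 in pika, against 24.1, 25.7 and 23.6 in mouse. SPC24 had 146, 159 and 126 in pika, against 10.5, 8.44 and 6.88 in mouse. Both differences were far beyond the spread of the libraries, with log2 fold changes of 3.12 ± 0.05 and 3.92 ± 0.14. NUF2, the partner of NDC80 at the microtubule end, averaged 104 ± 3.8 in pika and 11.2 ± 0.94 in mouse, and SPC25, the partner of SPC24, averaged 100.05 ± 12.3 in pika and 25.6 ± 3.68 in mouse. SPC25 thus had the smallest difference of the complex, 1.93 on the log2 scale. The subunit means spanned 2.21-fold in pika and 2.97-fold in mouse.

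MAD2L1 encodes MAD2, the checkpoint protein that holds back the anaphase-promoting complex. It had 180.3, 164 and 184 in pika, against 9.11, 12.3 and 11.5 in mouse. The groups were far apart, at 3.90 ± 0.11 on the log2 scale. KNTC1 and ZWILCH, 2 subunits of the RZZ complex that brings MAD proteins to unattached kinetochores, had log2 fold changes of 2.68 and 2.39. The 2 large coiled-coil proteins of the outer kinetochore differed from each other. CENPF averaged 118 ± 3.88 in pika and 10.8 ± 0.89 in mouse, which is 3.33 on the log2 scale. CENPE, a kinesin motor that moves chromosomes to the spindle equator, had 78.5, 80.1 and 82.0 in pika, against 25.1, 32.4 and 25.4 in mouse. Its log2 fold change was 1.51 ± 0.10, the smallest of the outer kinetochore genes.

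The 4 genes that act at anaphase onset were all called higher, with the lowest median of the role groups, 1.99 on the log2 scale. UBE2C, the ubiquitin-conjugating enzyme of the anaphase-promoting complex, stood apart from the others. It had 348, 352 and 356 in pika, against 30.1, 33.4 and 39.6 in mouse, which gave a log2 difference of 3.33 ± 0.09. CDC20, the activator of that complex, had 212, 229 and 220.3 in pika, against 91.8, 83.7 and 75.3 in mouse. CDC20 was the most abundant of the 44 in mouse, and its log2 fold change of 1.39 ± 0.07 was among the smallest. PTTG1, or securin, averaged 110.2 ± 0.25 in pika and 26.7 ± 3.64 in mouse, and ESPL1, or separase, 39.2 ± 2.42 in pika and 9.26 ± 0.73 in mouse. Inhibitor and protease had similar log2 fold changes, 2.01 ± 0.09 and 1.97 ± 0.10.

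The 6 spindle and cytokinesis genes had the highest median log2 fold change of the role groups, 3.35, and lay within 2.88 and 3.96. TPX2, which activates Aurora A and nucleates spindle microtubules, had 549.6, 539 and 543 in pika, against 50.4, 47.4 and 60.1 in mouse. NUSAP1, which bundles microtubules near chromosomes, had 241, 231 and 253 in pika, against 17.7, 12.8 and 13.6 in mouse. NUSAP1 had the largest fold change of the 44, 3.96 ± 0.11 on the log2 scale, although SPC24 led on the ratio of means. PRC1, which crosslinks the antiparallel microtubules of the central spindle, had 338, 355 and 344 in pika, against 31.3, 31.0 and 29.9 in mouse. ANLN, or anillin, the scaffold of the contractile ring, had 389, 399.8 and 406 in pika, against 41.9, 36.6 and 39.7 in mouse. These libraries agreed closely within each species, and the SEs of PRC1 and ANLN were 0.05 and 0.06. RACGAP1 of centralspindlin and ECT2, the exchange factor it recruits to the cell equator, had log2 fold changes of 3.35 and 2.88.

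Condensin I is a ring of SMC2 and SMC4 closed by NCAPH, with NCAPG and NCAPD2 bound to it. All 5 subunits were called higher, but their differences spanned the widest range of the complexes, from 1.14 for NCAPD2 to 3.73 for NCAPG on the log2 scale. SMC4 had 377, 378 and 397 in pika, against 51.3, 63.4 and 53.1 in mouse, and SMC2 averaged 203 ± 5.86 in pika and 42.2 ± 1.60 in mouse. NCAPG had 141, 135 and 143 in pika, against 8.57, 9.43 and 10.97 in mouse, and NCAPH averaged 143 ± 3.56 in pika and 11.1 ± 0.59 in mouse. NCAPD2 had 79.1, 74.5 and 73.1 in pika, against 29.3, 38.8 and 33.6 in mouse. NCAPD2 was thus the least abundant subunit in pika, while NCAPG and NCAPH were the lowest in mouse. The call of NCAPD2 was lost with median-of-ratios scaling, at 0.97, and with quantile normalization, at 0.95. TOP2A, the topoisomerase that untangles sister chromatids, was the most abundant of the 44 in pika, with 591, 594 and 620.2, against 56.1, 58.2 and 59.3 in mouse. Its log2 fold change was 3.36 ± 0.04 with an adjusted p of 1.0e-11 from limma, on chromosome 11 from 98992947 to 99024199.

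FPKM divides by gene length, and the mouse gene models were longer than the pika ones, 2.25 times at the median of 9946 tested genes and 2.19 times at the median of the mitotic genes. Without division by gene length, 41 of the 44 were called higher, where 25.8% of 10141 tested genes were called higher, and the median log2 fold change was 2.75. CENPA and INCENP, with INCENP at 0.83, were not called in this setting, and CENPT stayed under the minimum. Genes that kept their call moved in both directions. BIRC5 went from 3.14 to 1.26, MAD2L1 from 3.90 to 2.37 and SPC25 from 1.93 to 1.04, while TTK went from 3.69 to 4.55. A length worked out from FPKM can be too small by a whole factor shared with the reads. If that holds for INCENP in pika, its value of 0.83 is too low, which was not tested. If it holds for ESPL1 and BUB1 in mouse, their values in this setting, 4.41 and 3.87, are too high, which was also not tested. Of the 44, 7 had models within 0.8 to 1.25 times the pika length, a window chosen after the values were seen. They were TTK, PLK1, CENPN, CENPE, NDC80, CDC20 and SMC4. All 7 were called higher, with log2 fold changes from 1.39 to 3.69 and a median of 2.76. Among the 1276 tested genes of near-equal length, 16.3% were called higher and the median was -0.30.

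**Figure D4:**
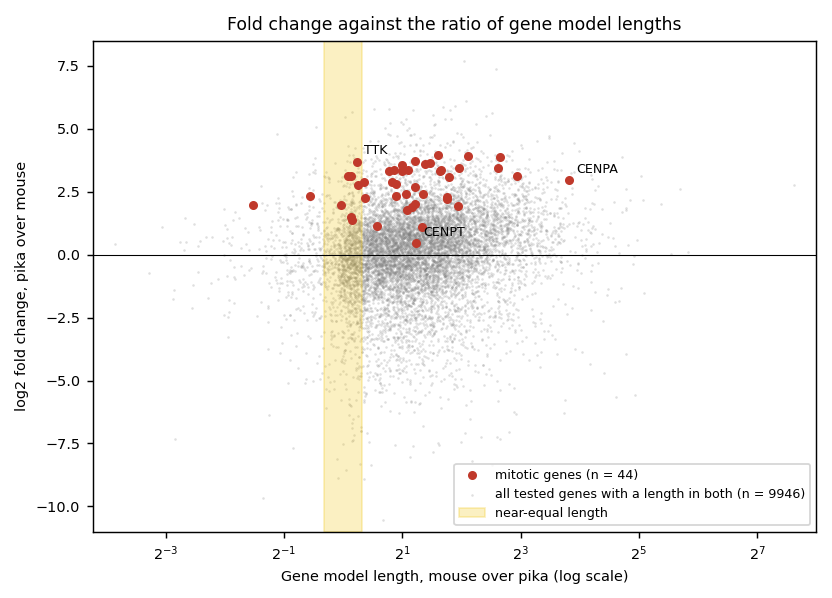
Log2 fold change, pika over mouse (y axis), against the ratio of gene model lengths, mouse over pika (x axis, log scale), for the 44 mitotic genes and 9946 tested genes with a length in both. The shaded band holds models of near-equal length, where the 7 mitotic genes lie between 1.39 and 3.69.

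The scale set between the species moved all genes together. Of the deposited FPKM, the top 10 rows held about 4.3% in pika, against 39.1% to 41.0% in mouse. On the deposited FPKM as it was, the median of all tested genes was 1.29 on the log2 scale, 58.3% of them were called higher and 84.5% of all calls were higher, against 55.0% with rescaling. All 44 mitotic genes were then called higher, CENPT included at 1.62. With median-of-ratios scaling, the median of all genes was 0.04, 25% of them were called higher, and 41 of the 44 mitotic genes were. Relative to the median of all genes in the same setting, the mitotic median was 2.68 higher with rescaling and between 2.46 and 2.97 higher in the other settings tried.

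Outside the 45, most of the other mitosis genes tested were also called higher in pika. In 6 lists of 91 further genes, 81 were tested, and 53 of them were called higher, where 28.7% of all tested genes were. A further 5 were called lower, where 23.5% of all tested genes were, and 23 had no call. Their median log2 fold change was 1.65. The lists and the 45 were chosen with earlier results of these data known, and the difference between them was not tested. Among 21 further centromere and kinetochore genes, 13 were called higher and 2 lower. SKA1, a microtubule-binding protein of the outer kinetochore, had 63.1, 58.5 and 67.1 in pika, against 2.4, 3.8 and 1.7 in mouse. NSL1, SPDL1 and CENPU followed, with log2 fold changes of 3.85, 3.84 and 3.46. SKA1 and NSL1 had 18 and 39 recovered reads over the 3 mouse libraries. Their mouse means, 2.63 and 2.58, were below the 4.49 of CENPW, which reached the filter on low values in pika alone. ZWINT, a kinetochore adaptor for the RZZ complex, went the other way, with 44.4, 42.5 and 45.9 in pika, against 141, 138 and 139.8 in mouse. HJURP, the chaperone that deposits CENPA, averaged 19.3 ± 2.19 in pika and 53.0 ± 3.35 in mouse. Both were called lower, with log2 fold changes of -1.64 and -1.41. Neither call held without rescaling, where ZWINT was at -0.35 and HJURP at -0.15.

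For the counts that follow, the shares over all tested genes were 28.7% called higher and 23.5% called lower. Of 12 genes of condensin II and cohesin, 8 were called higher and none lower. They were led by NCAPG2 at 3.23, CDCA5 at 2.67, NCAPD3 at 2.58 and PDS5A at 2.10 on the log2 scale. Of 17 subunits and regulators of the anaphase-promoting complex, 11 were called higher and 1 lower, with the smallest list median, 1.10. ANAPC11 and ANAPC7, at 2.73 and 1.87, turned negative without division by gene length, and UBE2S fell below the fold minimum, while FBXO5, an inhibitor of the complex, was at 2.02 and kept its call there, at 2.26. ANAPC2, the cullin subunit, had 65.6, 60.4 and 59.3 in pika, against 178, 188 and 199 in mouse, and was called lower at -1.59. Without rescaling it was at -0.30 and not called. Of 9 further mitotic kinases 6 were called higher and none lower, with PBK, PKMYT1, MASTL and MELK between 1.94 and 2.28. MASTL was at 0.97 without division by gene length, under the minimum. Values without division by gene length rest on recovered reads, which can be too small by a whole factor. Whether this holds for ANAPC11, ANAPC7, UBE2S or MASTL was not tested. Of 11 further spindle genes 9 were called higher, with CEP55, ASPM, DLGAP5 and CIT between 2.61 and 3.38. CKAP2, a spindle pole protein, was called lower at -1.24, and was at 0.02 on the deposited FPKM without rescaling.

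The regulators read were 11 subunits of DREAM and G2 and mitosis transcription factors. Of these, 6 were called higher and 1 lower, where 28.7% and 23.5% of all tested genes were. The other 4 had no call, and the median log2 fold change of the list was 1.51. MYBL2, or B-Myb, which joins the MuvB core when mitotic genes are activated, had 119, 124 and 117 in pika, against 2.82, 3.44 and 4.54 in mouse. Its log2 fold change of 4.74 ± 0.13 exceeded that of every one of the 44 mitotic genes, at a low mouse level. MYBL2 had 44 recovered reads over the 3 mouse libraries, and its mouse mean of 3.60 was below the 4.49 of CENPW. CENPW reached the filter on low values in pika alone. LIN9 of the MuvB core had 59.5, 57.4 and 57.5 in pika, against 4.12, 2.40 and 3.67 in mouse. Its mouse mean of 3.39, from 17 recovered reads, was also below that of CENPW. RBL1, the pocket protein p107, and RBBP4, another MuvB subunit, had log2 fold changes of 3.14 and 2.90. LIN52, also of the core, averaged 8.21 ± 0.84 in pika and 18.8 ± 4.77 in mouse, or -1.07 on the log2 scale. That direction did not hold at every scale: it was 0.10 without rescaling and 0.26 without division by gene length.

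**Figure D5:**
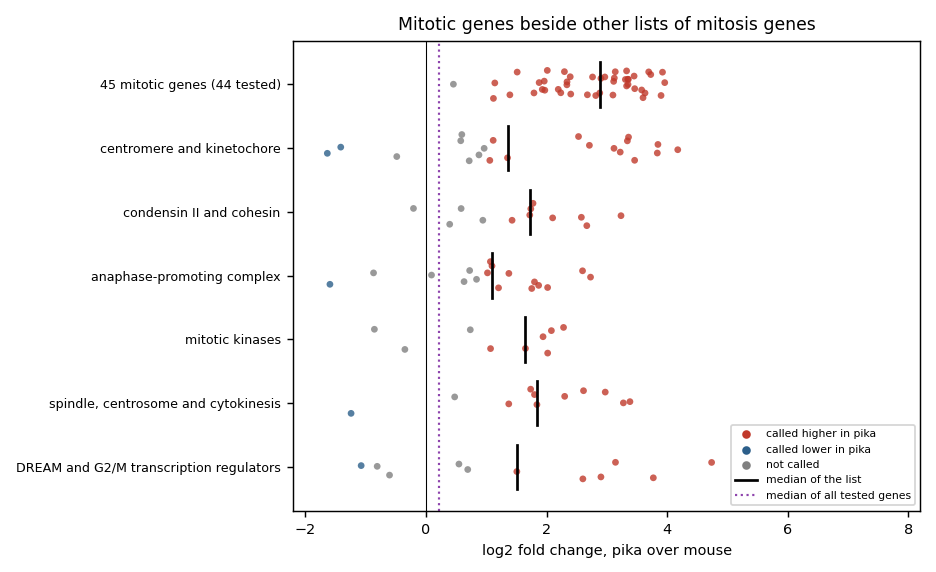
Log2 fold change, pika over mouse (x axis), of the 44 tested mitotic genes above and of 6 further lists of mitosis genes below, with 1 point per gene coloured by call and a bar at each list's median. The medians are 2.89 for the 44 and between 1.10 and 1.84 for the other lists.

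Markers of cell types were read in the same libraries. The fibroblast markers COL1A1, the type I collagen chain, and VIM, or vimentin, were among the highest in both species, and the 8 joined fibroblast markers summed to between 10683 and 11051 in pika and between 11443 and 11822 in mouse. That sum is mostly COL1A1 and VIM, and single markers differed in both directions: FAP and DCN were called higher, PDGFRA and PDGFRB lower, and 4 had no call. PDGFRA averaged 3.47 ± 0.34 in pika and 65.1 ± 4.21 in mouse, and FAP 41.7 ± 0.97 in pika and 1.23 ± 0.66 in mouse, both named after their values were seen. PDGFRB, at -1.04 on the log2 scale, was at 0.24 without rescaling. All 5 joined keratinocyte markers, KRT5, KRT14, KRT10, CDH1 and EPCAM, were at 0 in every pika library and summed to at most 6.14 in mouse, although the labels name epidermis. Melanocyte markers, mainly PMEL, summed to between 30.4 and 35.8 in pika and between 2.72 and 7.41 in mouse. Endothelial markers, mainly TEK, summed to at most 1.54 in pika and between 30.4 and 38.1 in mouse, and CDH5 and KDR were at 0 in pika. Leukocyte markers, mainly CD68 and CSF1R, summed to at most 4.73 in pika and between 20.1 and 35.3 in mouse, and PTPRC was at 0 in pika. Their part in the mitotic differences was not tested. In bulk RNA, fewer dividing cells and less mitotic RNA per cell cannot be told apart.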

How the data were processed

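The values were FPKM per gene, as the authors deposited them, for 3 pika and 3 mouse RNA-seq libraries. STAR 2.6.1a, featureCounts, edgeR 3.28.1, CASAVA 1.9 and the build GRCm38 are listed, with no roles or order, in the submitters' processing notes. The counting of shared reads and the use of strand are not given in the sources used here. Because FPKM divides reads by gene length and library total, longer gene models lower the value, and a few very abundant rows lower all others.

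Pika rows carried symbols, 24 of 19398 of them turned into dates, and 49326 of 49585 mouse identifiers were given symbols from a table of mouse genes. Of the summed FPKM, the 14418 joined genes took about 87.1% in pika and 37.0% to 38.3% in mouse. Rat and rabbit identifiers could not be paired with symbols from the tables at hand and were not used here, so the fit held 6 libraries. The 6 ChIP-seq samples were not analysed here. Each library was rescaled to a sum of 1000000 over the joined genes, and genes with a mean deposited FPKM of at least 1 in at least 1 species were tested by limma-trend on log2(value + 1), run two-sided in limma 3.58.1 under R 4.3.3, with Benjamini-Hochberg adjustment over all tested genes. The pseudocount of 1 understates the change of low genes. Fold changes are pika over mouse with their SE, and levels are mean ± SD over 3 libraries.

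Each library's total was worked out from the FPKM steps. For a gene, the smallest length that gave whole reads within 0.002 was taken. Recovered reads and length can therefore both be too small by a shared whole factor. Library totals of 8159478, 7703576 and 8481030 reads were found in pika and of 5758950, 3663102 and 4742265 in mouse, and the recovered reads made up between 95.7% and 97.0% of them. Between libraries of a species, the mean chi-square per gene lay at 1.36 to 1.55 in pika and 1.16 to 1.24 in mouse, where sampling gives about 1. Alternatives were other scalings, pseudocounts and filters, no variance trend, reads without division by length, replicate number as a block, and each library left out. The text may name all 45 genes, from each further list the 4 called genes with the largest change and every gene called lower, and the most abundant markers. The genes and lists were chosen with earlier results of these data known. Tables and plots were made in Python 3.11.15 with numpy 2.4.6, scipy 1.17.1, pandas 2.3.3 and matplotlib 3.10.9.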

Additional observations from a re-analysis of the deposited data

How the results depend on the processing

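Of the 44 tested mitotic genes, between 41 and 44 were called higher and none lower in every alternative tried. Their median log2 fold change was 2.89, and it was 3.87 without rescaling, 2.72 with median-of-ratios scaling, 2.64 with a pseudocount of 5, 2.75 without division by gene length, and between 2.79 and 2.95 when 1 library was left out. Without mouse replicate 1, 42 were called higher, INCENP being lost. The 5 other mitosis genes called lower were 0 without rescaling and 9 without division by gene length. ANAPC11 and ANAPC7 were at -0.48 and -0.15 without division by gene length, LIN52 at 0.26, and without rescaling CKAP2 and LIN52 were at 0.023 and 0.10; the cause was not tested. LIN52 lost its call without pika replicate 3 or mouse replicate 1, at -0.997 and -0.93. Over all genes, 2970 were called higher and 2433 lower, against 6029 and 1106 without rescaling, and 1584 were called lower among the 8513 left by a filter at 5 FPKM. Libraries of the 2 species share replicate numbers, but same-numbered libraries did not deviate together, with correlations of -0.009, 0.048 and 0.009. With the replicate number as a replicate block, 43 mitotic genes and 2972 of all genes were called higher, with a median of 2.89. Of the 44, 10 had under 100 recovered reads over the 3 mouse libraries, which limits their precision. ESPL1 and BUB1 are among these 10, and recovered reads can be too small by a whole factor.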
